A study of Mus musculus with 6 samples.

Results

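The 34 genes described here mark fat cells and make, store or release fat: 5 identity genes of adipocytes and their lipid droplet, 6 adipokines and surface or cytosolic markers, 2 transcription factors, 4 genes of fatty acid uptake, 7 of fatty acid synthesis, 5 of triglyceride assembly and 5 lipases with a droplet coat. They were listed by name, and grouped by what such genes are known to do, with earlier results of these data known, and all 34 are among the 35275 genes of the deposited table. Of these, 33 had a mean of at least 1 FPKM (a count of fragments divided by gene length and library depth) over the 6 libraries and were among the 12165 genes tested; Lep was not. The libraries were made from total RNA of whole mouse aorta, 3 labelled wild-type and 3 labelled EC-Jag1KO. In EC-Jag1KO mice the Notch ligand Jagged1 is lost from endothelial cells, and the study compared such aortas with wild-type controls. The sources used here give neither the driver of the deletion nor the strain and age of the mice. Nothing in the labels states that each library is a separate animal, so a p-value here covers the spread among these 6 samples only.

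White adipocytes store triglyceride in 1 large lipid droplet coated by perilipins and CIDE proteins, and they secrete hormones such as adiponectin and leptin. They take up fatty acids that lipoprotein lipase frees at the capillary wall, and they also build fatty acids from citrate through ATP citrate lyase, acetyl-CoA carboxylase and fatty acid synthase. Elongases and desaturases finish those chains, and the enzymes of de novo lipogenesis respond to insulin and feeding through the factors SREBP-1c and ChREBP. The aorta is wrapped in perivascular fat, which in the mouse thorax has many features of brown fat, and the labels do not say how much of it was removed.

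Reads in genes numbered 19889910 to 25914325 per library, and the 33 tested genes rested on 50 to 148961 reads each per library. The lowest of these were Adig and Pnpla3, with 50 and 51 reads in wild-type replicate 2. Xist and Y-linked genes marked replicates 1 and 2 of each group as male and replicate 3 as female. Jag1 itself averaged 12.4 ± 3.8 FPKM over the wild-type libraries, against 14.2 ± 5.1 FPKM with EC-Jag1KO (SD over 3 libraries each), a value over the whole gene and the whole tissue that does not check a deletion in endothelium alone. Defining markers of fat were present in every library: the lowest level of Adipoq was 19.9 FPKM and that of Plin1 was 12.9 FPKM. Leptin, a hormone of white fat, reached at most 0.818 FPKM, on 4 to 63 reads. The brown fat gene Ucp1 ranged from 8.74 to 263 FPKM and Cidea from 18.4 to 140 FPKM. The adipose RNA of these aortas therefore held brown markers as well, and the genes are called adipocyte and lipogenesis genes below, without the word white. In RNA from whole tissue, fewer fat cells and less RNA per fat cell cannot be told apart.

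The promoters of 6 genes are shown because the results set 2 kinds of gene side by side, those of fatty acid synthesis and the identity genes that measure fat. Each is 250 bases before to 50 after the RefSeq start, on build GRCm38.p6 (the assembly of mm10), and is written 5′ to 3′ on the strand of the gene. Capitals mark matches on either strand to 7 motifs: CCAAT (the NF-Y box), GGGCGG (the GC box), AGGTCA (a nuclear receptor core), TTGCNNAA (a C/EBP site), TCACNCCAC (an SREBP element), CACGTG (an E-box) and TATAAA (the TATA box). Acly lies at chr11:100527951-100528250 on the minus strand, Fasn at chr11:120824498-120824797 on the minus strand, Elovl6 at chr3:129532136-129532435 on the plus strand and Thrsp at chr7:97417501-97417800 on the minus strand. Adipoq lies at chr16:23146286-23146585 on the plus strand and Plin1 at chr7:79732727-79733026 on the minus strand.
Acly: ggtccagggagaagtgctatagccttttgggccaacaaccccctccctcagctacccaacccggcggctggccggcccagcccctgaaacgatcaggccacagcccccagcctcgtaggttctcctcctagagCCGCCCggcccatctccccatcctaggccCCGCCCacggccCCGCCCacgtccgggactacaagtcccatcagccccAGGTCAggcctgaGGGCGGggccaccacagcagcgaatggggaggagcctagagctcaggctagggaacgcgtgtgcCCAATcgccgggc
Fasn: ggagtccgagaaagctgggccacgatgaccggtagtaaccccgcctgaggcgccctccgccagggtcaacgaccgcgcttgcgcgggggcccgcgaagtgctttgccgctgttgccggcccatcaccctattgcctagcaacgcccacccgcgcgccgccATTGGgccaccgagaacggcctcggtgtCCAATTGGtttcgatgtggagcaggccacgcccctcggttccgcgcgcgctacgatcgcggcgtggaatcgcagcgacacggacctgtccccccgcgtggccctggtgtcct
Elovl6: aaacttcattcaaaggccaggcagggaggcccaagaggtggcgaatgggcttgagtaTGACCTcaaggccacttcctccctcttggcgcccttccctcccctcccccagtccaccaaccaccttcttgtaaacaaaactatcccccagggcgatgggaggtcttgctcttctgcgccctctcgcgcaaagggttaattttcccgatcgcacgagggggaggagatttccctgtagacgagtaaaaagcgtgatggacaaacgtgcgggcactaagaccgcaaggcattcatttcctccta
Thrsp: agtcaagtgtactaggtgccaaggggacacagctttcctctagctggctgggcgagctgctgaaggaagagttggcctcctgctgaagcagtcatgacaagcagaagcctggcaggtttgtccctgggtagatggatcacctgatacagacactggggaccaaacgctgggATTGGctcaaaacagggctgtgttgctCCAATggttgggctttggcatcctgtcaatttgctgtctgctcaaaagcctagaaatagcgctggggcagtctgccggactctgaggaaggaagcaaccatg
Adipoq: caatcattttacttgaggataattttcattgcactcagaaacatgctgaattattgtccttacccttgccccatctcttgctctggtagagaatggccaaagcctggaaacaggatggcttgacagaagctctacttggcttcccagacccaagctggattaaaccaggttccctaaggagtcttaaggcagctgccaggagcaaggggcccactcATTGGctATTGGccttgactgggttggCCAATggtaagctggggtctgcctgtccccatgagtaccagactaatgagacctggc
Plin1: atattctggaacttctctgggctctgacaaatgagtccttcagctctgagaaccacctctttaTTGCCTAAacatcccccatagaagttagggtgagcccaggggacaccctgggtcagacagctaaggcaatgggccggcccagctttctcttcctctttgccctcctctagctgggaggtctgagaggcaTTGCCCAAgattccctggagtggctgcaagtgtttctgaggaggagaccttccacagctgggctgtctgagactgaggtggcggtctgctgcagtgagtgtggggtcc

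Of the 34 genes, 24 matched an entry of the RefSeq promoter table, among them all of the synthesis genes except Scd1 and Scd2. The Acly window held 6 matches, of which 4 were GC boxes, 1 a CCAAT box after the start and 1 an AGGTCA core. The Fasn window held 3 CCAAT matches, a pair of which overlap in the palindrome that reads as a single run of capitals, and the Thrsp window held 2. Adipoq held 3 CCAAT matches close to its start, Elovl6 a single AGGTCA core and Plin1 2 C/EBP matches. CCAAT was found in 37.4% of all 32851 promoters of that table, GGGCGG in 35.7%, AGGTCA in 16.3% and TTGCNNAA in 10.8%. TCACNCCAC was found in 1.24% and in none of the 6 printed windows. Of the 24 matched genes, 11 held CCAAT and 12 held GGGCGG in at least 1 of their promoters, whereas the percentages count single promoters. The RefSeq start of Fasn is 369 bases from the start in the deposited table and that of Thrsp is 180 bases from it. For Acaca, which is not printed, the distance is 65766 bases. A match is a run of letters and not a measured binding site.

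Taken over the whole set, the adipocyte and lipogenesis genes lay mostly higher in EC-Jag1KO aorta, and none of them passed the test. With limma and Benjamini-Hochberg adjustment over all genes, 0 of the 33 had an adjusted p of at most 0.05, as did 0 of 12165 genes (0.0%), and the smallest adjusted p in the set was 0.520, of Acly. Voom in limma on the recovered reads also passed 0 genes. At an unadjusted p under 0.05, 3 of 33 lay higher (Acly, Slc2a4 and Scd1), where 4.25% of all genes did, and 0 lay lower, where 3.46% did. The log2 fold change (EC-Jag1KO minus wild-type, on log2(FPKM + 1)) was above 0 for 30 of 33, against 50.0% of all genes, with a median of 0.54 against -0.00022 over all genes. In 5 of 33 every EC-Jag1KO library lay above every wild-type library (Slc2a4, Acly, Elovl6, Scd1 and Thrsp), which held for 6.84% of all genes, and in 0 of 33 every one lay below, against 6.73%.

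The set followed 1 library closely. Wild-type replicate 2 was the lowest of the 6 in 31 of 33 genes, where that library was the lowest in 17.1% of all genes, and the exceptions were Plin4, lowest in EC-Jag1KO replicate 3 (25.6% of all genes), and Mgll, lowest in EC-Jag1KO replicate 2 (19.4%). Summed over the 34 genes, the level was 4214, 1208 and 5150 FPKM in the wild-type libraries and 6686, 4658 and 3801 FPKM in the EC-Jag1KO libraries. The highest library was EC-Jag1KO replicate 1 in 17 of 33 genes (13.2% of all genes) and wild-type replicate 3 in 14 of 33 (20.6%). Plin4 was highest in wild-type replicate 1 (8.09% of all genes) and Scd2 in EC-Jag1KO replicate 3 (25.6%). Without wild-type replicate 2, 16 of 33 genes lay higher in EC-Jag1KO (47.7% of all genes) and the median of the 33 was -0.058 on the log2 scale. Leaving out EC-Jag1KO replicate 1 instead, 28 of 33 lay higher (48.7%), with a median of 0.41.

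**Figure D1:**
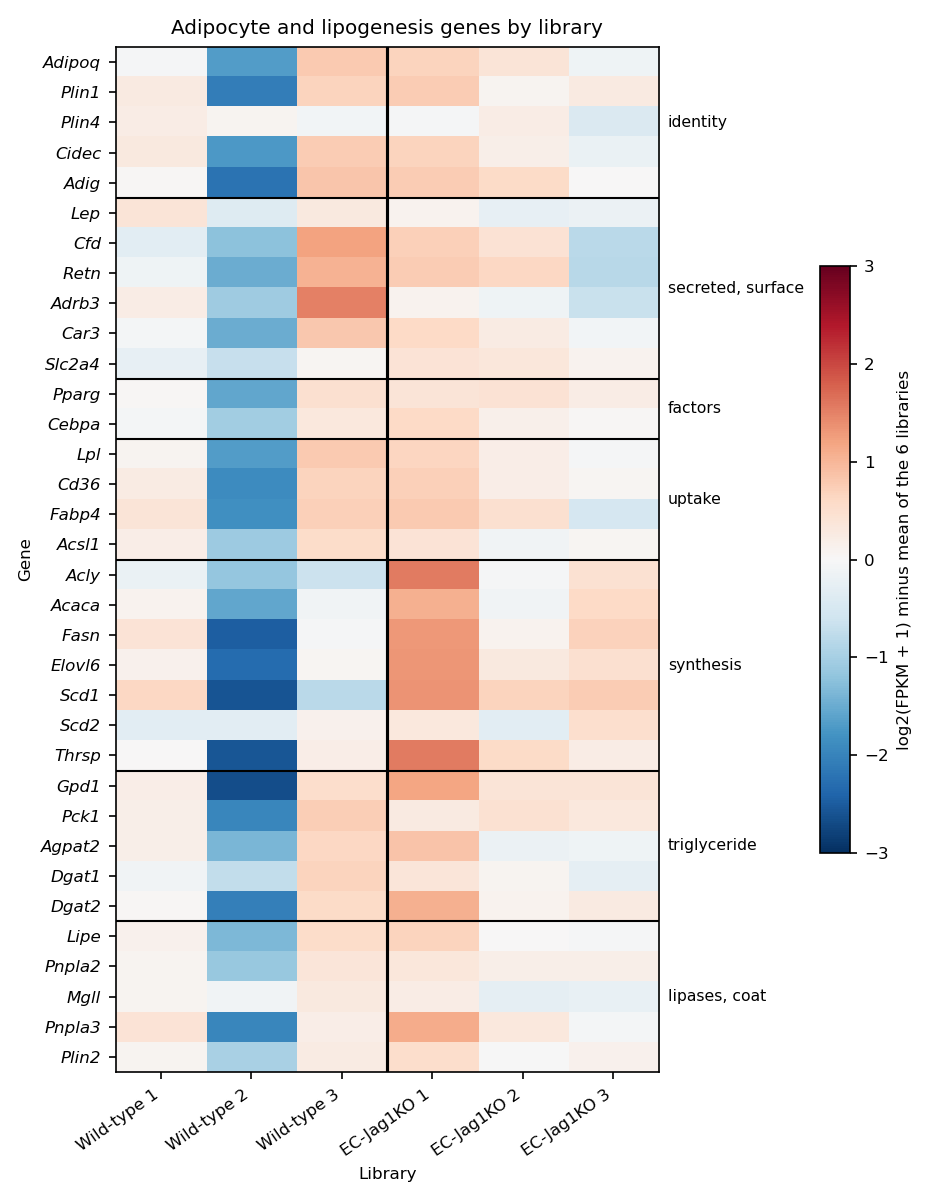
Each row is 1 of the 34 genes, in the order of their roles, and each column is 1 library. Colour gives log2(FPKM + 1) minus the gene's mean over the 6 libraries; the column of wild-type replicate 2 is blue in nearly every row, and EC-Jag1KO replicate 1 is the darkest red column in most synthesis genes.

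The 5 identity genes were read as the measure of fat RNA in each aorta, and 0 of 5 passed. Adipoq encodes adiponectin, a hormone of fat cells, and stood at 64.6, 19.9 and 115 FPKM in wild-type libraries, against 107, 87.6 and 60.5 FPKM with EC-Jag1KO. The wild-type libraries held both the highest and the lowest value, so the groups overlapped fully. For Adipoq the log2 fold change came to 0.63 (95% interval from -0.71 to 1.97), and an exact two-sided permutation test gave p = 0.7, the lowest possible for groups of 3 being 0.1. Plin1, the perilipin that guards the droplet from lipases, stood at 69.5, 12.9 and 92.7 FPKM in wild-type libraries, against 98.1, 61.0 and 70.0 FPKM with EC-Jag1KO. Cidec, which fuses droplets into 1 large one, stood at 78.5, 18.7 and 108 FPKM against 102, 72.4 and 55.2 FPKM. Adig, a small protein of adipocyte droplets, stood at 18.7, 3.15 and 33.5 FPKM against 31.7, 27.4 and 18.3 FPKM. In all of these wild-type replicate 2 was far below the other libraries and the remaining 5 libraries overlapped. The log2 fold changes of Plin1, Cidec and Adig were 0.75, 0.44 and 0.89, with adjusted p-values of 0.841, 0.906 and 0.821.

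Plin4, another droplet coat protein, did not follow the others. It stood at 144, 130 and 115 FPKM in wild-type libraries, against 119, 143 and 90.5 FPKM with EC-Jag1KO, a span of 1.59 times from lowest to highest, where Adipoq spanned 5.77 times and Adig 10.6 times. The groups overlapped, and its log2 fold change was -0.16 with an adjusted p of 0.884. Without wild-type replicate 2 the log2 fold changes of Adipoq, Plin1 and Cidec were -0.058, -0.10 and -0.31, that of Adig was 0.0065, and the median of the 5 was -0.10 in place of 0.63.

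**Figure D2:**
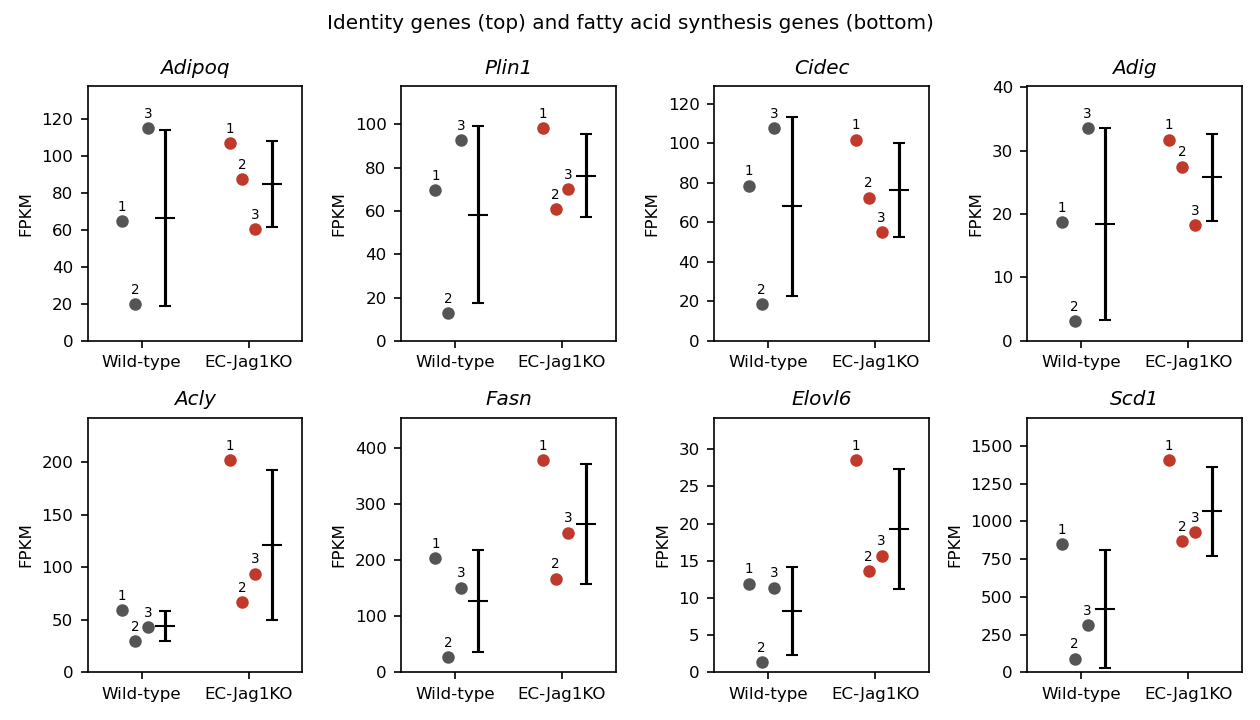
FPKM of 4 identity genes (top) and 4 synthesis genes (bottom) in each library, with the replicate number above each point and the mean ± SD of the 3 libraries of a group beside it. Wild-type replicate 2 is the lowest point in every panel; the groups overlap in the top row, and in Acly, Elovl6 and Scd1 every EC-Jag1KO point lies above every wild-type point.

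Of the 5 tested hormones and surface markers, 4 lay higher and 1 lower, and 0 passed. Cfd, the complement protease adipsin that fat secretes, stood at 302, 160 and 861 FPKM in wild-type libraries, against 615, 503 and 213 FPKM with EC-Jag1KO. Retn encodes resistin and ranged from 6.04 to 39.3 FPKM, and Car3, a carbonic anhydrase abundant in fat, from 117 to 580 FPKM. The groups overlapped in each, with log2 fold changes of 0.22, 0.38 and 0.50, none with an adjusted p below 0.872. Car3 is also a skeletal muscle gene; the muscle creatine kinase Ckm stood at 1.10 to 2.28 FPKM in these libraries. Lep stood at 0.818, 0.0488 and 0.692 FPKM against 0.490, 0.170 and 0.225 FPKM and was not tested. Of these 5 tested genes 1 lay higher without wild-type replicate 2, Slc2a4, and 4 lower, with a median of -0.27 on the log2 scale in place of 0.38.

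Slc2a4 encodes the insulin-responsive glucose transporter of fat and muscle. It stood at 22.0, 15.9 and 27.6 FPKM in wild-type libraries, against 35.5, 33.8 and 28.5 FPKM with EC-Jag1KO. Each EC-Jag1KO library was above each wild-type library, and the closest pair was 28.5 and 27.6 FPKM. The log2 fold change was 0.59 (SE 0.19), with an adjusted p of 0.544 and an exact two-sided permutation p of 0.1, the smallest this design allows.

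Adrb3, the beta-3 adrenergic receptor through which noradrenaline starts lipolysis, stood at 9.05, 3.10 and 23.7 FPKM in wild-type libraries, against 8.23, 6.93 and 4.42 FPKM with EC-Jag1KO. The groups overlapped and the log2 fold change was -0.45 with an adjusted p of 0.900. As a ratio to Adipoq in the same library it was 0.140, 0.156 and 0.206 in wild-type and 0.0770, 0.0791 and 0.0730 in EC-Jag1KO aorta. The groups did not overlap in this ratio, and the 3 EC-Jag1KO ratios lay within a narrow range. The groups also did not overlap in this ratio for Thrsp and Adig, both higher, and for Dgat1, lower. Adig, itself an identity gene, stood at 0.289, 0.158 and 0.291 in wild-type and 0.297, 0.313 and 0.302 in EC-Jag1KO libraries. The share of all genes that separate in this ratio was not counted, so these ratios are description only. For Adrb3 the further fits were as follows. With the identity level as a covariate its log2 fold change was -1.02 (95% interval from -1.55 to -0.48), with an unadjusted p of 0.00307 and an adjusted p of 0.506. Without wild-type replicate 2 and with no covariate it was -1.10, and in the male libraries alone it was 0.41.

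Both transcription factors of fat cell identity lay higher without passing. Pparg, the nuclear receptor that drives adipogenesis, stood at 10.6, 2.81 and 14.8 FPKM in wild-type libraries, against 13.8, 14.3 and 12.2 FPKM with EC-Jag1KO. Cebpa, its partner factor, stood at 32.0, 15.8 and 41.6 FPKM against 50.8, 37.3 and 34.2 FPKM. The groups overlapped in both, with log2 fold changes of 0.70 and 0.52 and adjusted p-values of 0.779 and 0.766. The log2 fold changes were 0.089 and 0.14 without wild-type replicate 2.

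The 4 genes of fatty acid uptake lay higher, and 0 of 4 passed. Lpl encodes lipoprotein lipase, Cd36 a fatty acid translocase, Fabp4 the fatty acid carrier of adipocytes and Acsl1 the enzyme that activates fatty acids with coenzyme A. Fabp4, at 206 to 1274 FPKM, was the most abundant of them, with 965, 206 and 1216 FPKM in wild-type libraries, against 1274, 1035 and 519 FPKM with EC-Jag1KO. Lpl ranged from 23.1 to 131 FPKM, Cd36 from 10.5 to 69.3 FPKM and Acsl1 from 27.0 to 86.2 FPKM, and the groups overlapped in all 4. The 4 log2 fold changes ran from 0.24 to 0.65 with a median of 0.52. Without wild-type replicate 2 they ran from -0.30 to -0.13. Cd36 and Fabp4 are also made by capillary endothelium, and the summed endothelial markers stood at 326 to 471 FPKM in wild-type and 364 to 459 FPKM in EC-Jag1KO libraries.

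The genes of fatty acid synthesis had the largest median difference of the 7 roles. All 7 lay higher in EC-Jag1KO aorta, with log2 fold changes from 0.33 to 1.84 and a median of 1.40, and 0 of 7 passed. Their summed level was 1290, 197 and 705 FPKM in wild-type libraries, against 2447, 1332 and 1499 FPKM with EC-Jag1KO, a mean of 731 ± 547 FPKM against 1759 ± 601 FPKM (SD over 3 libraries). The 3 EC-Jag1KO sums were above the 3 wild-type sums, the closest pair being 1332 and 1290 FPKM. Scd1 alone gave 849, 90.8 and 313 FPKM of the wild-type sums and 1407, 867 and 928 FPKM of the EC-Jag1KO sums. EC-Jag1KO replicate 1 was the highest library in 6 of the 7. Without it the median was 1.10, and without wild-type replicate 2 it was 0.61.

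Acly encodes ATP citrate lyase, which makes cytosolic acetyl-CoA from citrate; it lies on chromosome 11 from 100476353 to 100528000 on the minus strand in mm10. It stood at 59.0, 29.9 and 43.2 FPKM in wild-type libraries, against 202, 66.7 and 94.0 FPKM with EC-Jag1KO. Every EC-Jag1KO library was above every wild-type library, and EC-Jag1KO replicate 1 was far above the other libraries of its group. The log2 fold change was 1.33 (SE 0.41, 95% interval from 0.37 to 2.30), with an unadjusted p of 0.0135, an adjusted p of 0.520 and an exact two-sided permutation p of 0.1. Without EC-Jag1KO replicate 1 it was 0.89.

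Acaca, acetyl-CoA carboxylase, which commits acetyl-CoA to fatty acids, stood at 27.3, 7.86 and 23.4 FPKM against 53.8, 23.6 and 39.0 FPKM. Fasn, fatty acid synthase, which builds palmitate, stood at 204, 27.0 and 151 FPKM in wild-type libraries, against 379, 167 and 249 FPKM with EC-Jag1KO. In both genes EC-Jag1KO replicate 2 lay below wild-type replicate 1, so the groups overlapped. The log2 fold changes were 1.05 and 1.40, with adjusted p-values of 0.654 and 0.693.

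Elovl6, the elongase that turns palmitate into stearate, stood at 11.9, 1.41 and 11.4 FPKM in wild-type libraries, against 28.6, 13.6 and 15.7 FPKM with EC-Jag1KO. Scd1, the stearoyl-CoA desaturase that makes oleate, had the highest EC-Jag1KO mean of the set (over all 6 libraries Fabp4 was higher), at 849, 90.8 and 313 FPKM against 1407, 867 and 928 FPKM. The groups did not overlap in either gene, although the Scd1 levels of wild-type replicate 1 and EC-Jag1KO replicate 2 lay close together. Their log2 fold changes were 1.41 (95% interval from -0.093 to 2.91) and 1.84 (95% interval from 0.17 to 3.52), with adjusted p-values of 0.660 and 0.616.

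Thrsp, the Spot 14 protein that accompanies lipogenesis, stood at 117, 18.5 and 134 FPKM in wild-type libraries, against 344, 172 and 135 FPKM with EC-Jag1KO. The groups were separate by a narrow margin, between wild-type replicate 3 and EC-Jag1KO replicate 3. Its log2 fold change was 1.57 with an adjusted p of 0.670. Scd2, a desaturase that many tissues express, stood at 21.3, 21.2 and 29.5 FPKM against 33.3, 21.2 and 38.1 FPKM. It spanned only 1.80 times, overlapped between groups and had the smallest log2 fold change of the 7, 0.33.

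All 5 genes that supply glycerol 3-phosphate or join it to fatty acids lay higher, with a median log2 fold change of 0.70. Gpd1, the dehydrogenase that makes glycerol 3-phosphate from glucose carbon, stood at 104, 13.4 and 130 FPKM in wild-type libraries, against 206, 117 and 117 FPKM with EC-Jag1KO. Wild-type replicate 3 lay above 2 of the EC-Jag1KO libraries, and the log2 fold change was 1.29 with an adjusted p of 0.752. Pck1, which feeds the same step from pyruvate, stood at 119, 26.4 and 179 FPKM against 128, 145 and 133 FPKM. Dgat2, an enzyme of the final acylation to triglyceride, stood at 73.4, 16.5 and 107 FPKM against 151, 76.7 and 87.0 FPKM. In both the groups overlapped. The log2 fold changes of Pck1 and Dgat2 were 0.70 and 0.96, and none of the 5 passed. The acyltransferases Agpat2, at 24.9 to 120 FPKM, and Dgat1, at 16.0 to 44.0 FPKM, had log2 fold changes of 0.38 and 0.12. Of the 5 genes 2 lay higher without wild-type replicate 2, Gpd1 with a log2 fold change of 0.28 and Dgat2 with 0.18, and 3 lower, with a median of -0.11. Agpat2 shares 64 bases with Egfl7 on the other strand, an endothelial gene at a mean of 25.3 FPKM, and the strand setting of the counting is not given.

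Of the lipases and their droplet coat, 4 of 5 lay higher and 0 passed. Pnpla2, the adipose triglyceride lipase of the first step of lipolysis, stood at 133, 56.5 and 161 FPKM in wild-type libraries, against 158, 142 and 142 FPKM with EC-Jag1KO. Lipe, hormone-sensitive lipase of the following step, ranged from 10.1 to 44.0 FPKM, and Plin2, a droplet coat of many cell types, from 22.6 to 65.7 FPKM. Their log2 fold changes were 0.46, 0.44 and 0.43, and the groups overlapped in all of them. Mgll, which completes lipolysis, stood at 60.2, 52.8 and 69.5 FPKM against 66.4, 46.9 and 48.5 FPKM, a span of 1.48 times, with a log2 fold change of -0.18. Pnpla3, a droplet lipase that accompanies lipogenesis, had the widest span of the 33 genes, 25.4 times: 6.43, 0.437 and 5.47 FPKM against 11.1, 5.96 and 4.36 FPKM. Its groups overlapped, with a log2 fold change of 0.90 and an adjusted p of 0.786. With wild-type replicate 2 left out, 3 of the 5 lay higher, and the median log2 fold change of the 5 was 0.0089 in place of 0.44.

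To separate fat content from synthesis, the mean log2(FPKM + 1) of the 5 identity genes was taken as the identity level of a library. It was 5.99, 4.31 and 6.43 in wild-type and 6.40, 6.13 and 5.74 in EC-Jag1KO libraries. The mean log2 level of the 7 synthesis genes was 6.17, 4.21 and 5.89 against 7.27, 6.23 and 6.59. Synthesis minus identity was therefore 0.18, -0.11 and -0.53 on the log2 scale in wild-type and 0.87, 0.11 and 0.86 in EC-Jag1KO libraries. EC-Jag1KO replicates 1 and 3 stood above all wild-type libraries by this measure, while replicate 2 lay between wild-type replicates 1 and 2, so the groups overlapped. Wild-type replicate 2, lowest in both levels, lay in the middle of its group in the difference. That order depends on Plin4, which lay 2.72 above the identity level in this library, against 1.18 and 0.43 in wild-type replicates 1 and 3. With Plin4 left out of the level, wild-type replicate 2 would be the highest of its group in the difference. EC-Jag1KO replicate 2 would then lie below wild-type replicates 1 and 2, so the groups would still overlap.

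**Figure D3:**
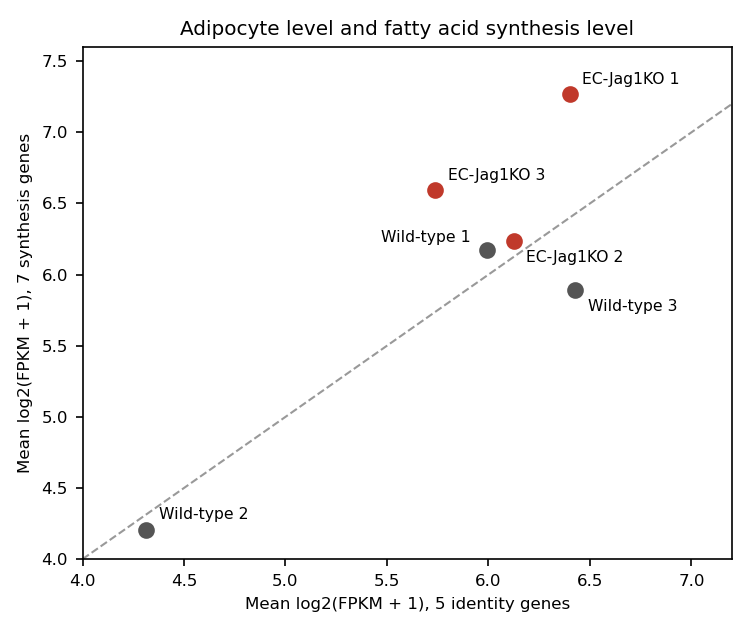
Each point is 1 library: the mean log2(FPKM + 1) of the 5 identity genes on the horizontal axis and of the 7 synthesis genes on the vertical axis, with the dashed line where they are equal. Wild-type replicate 2 lies at the bottom left, at 4.31 and 4.21, and EC-Jag1KO replicates 1 and 3 lie farthest above the line, by 0.87 and 0.86.

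With the identity level as a covariate in the same limma fit, 0 of 12165 genes passed (0.0%). The 7 synthesis genes all kept a log2 fold change above 0, with a median of 0.79, where 47.6% of all genes lay higher. The 21 genes that are neither identity nor synthesis genes lay higher in 10 and lower in 11, with a median of -0.022. Without wild-type replicate 2 and with no covariate, 7 of 7 synthesis genes lay higher with a median of 0.61, and 8 of the other 21 did, with a median of -0.13. At an unadjusted p under 0.05 with the covariate, 6 genes lay higher (3.81% of all genes), namely Slc2a4, Acly, Elovl6, Scd1, Thrsp and Gpd1, and Adrb3 alone lay lower (3.31%). Their adjusted p-values were 0.506 or above.

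The estimates for single synthesis genes varied, and differences between these genes were not tested. With the covariate the log2 fold change was 1.28 for Scd1, 1.11 for Acly, 0.84 for Thrsp, 0.79 for Elovl6, 0.75 for Fasn, 0.66 for Acaca and 0.27 for Scd2. As a ratio to Adipoq, Thrsp was 1.81, 0.930 and 1.16 in wild-type and 3.21, 1.97 and 2.22 in EC-Jag1KO libraries, and the groups did not overlap. As given above, this also held for the identity gene Adig, and in the lower direction for Adrb3 and Dgat1, with no share of all genes counted. The Scd1 ratio was 13.1, 4.55 and 2.73 against 13.2, 9.90 and 15.3, and the Fasn ratio was 3.16, 1.36 and 1.31 against 3.54, 1.91 and 4.12. In both of these wild-type replicate 1 lay above EC-Jag1KO replicate 2, so the groups overlapped. After the identity level was subtracted from each log2 value, 3 of 33 genes were higher in every EC-Jag1KO library, Elovl6, Thrsp and Gpd1, and 1 was lower, Adrb3. The same held for 0.123% and 1.45% of all genes, a background that is low by construction, since subtracting a level that is low in wild-type replicate 2 raises most other genes in that library.

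**Figure D4:**
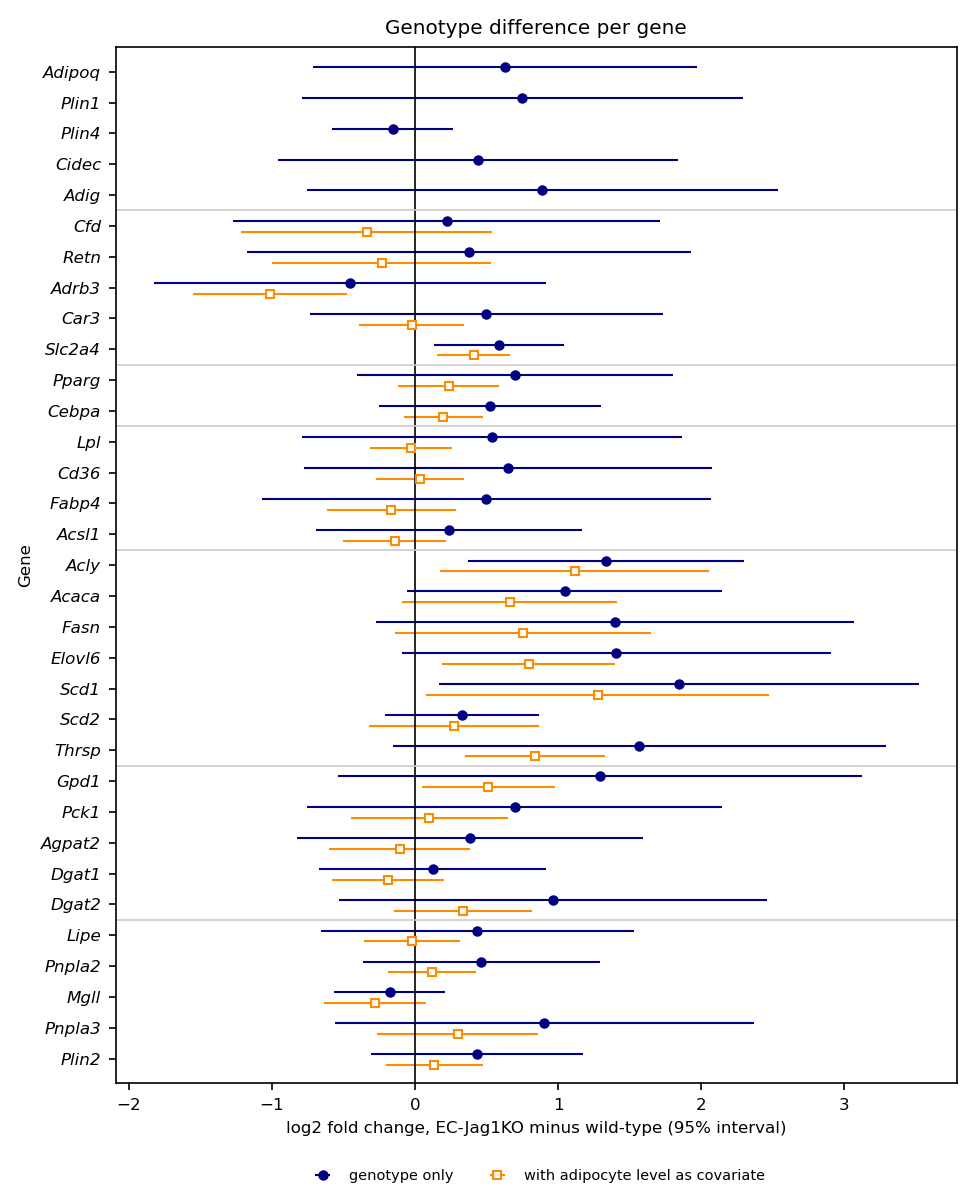
Log2 fold change (EC-Jag1KO minus wild-type) of the 33 tested genes with its 95% interval from limma, from genotype alone (filled circles) and with the identity level as covariate (open squares, for the 28 genes outside the identity set). With the covariate the synthesis genes lie at 0.27 to 1.28 and Adrb3 lies at -1.02.

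Of other genes of the same pathways, 0 passed in any of 9 lists. Of their 97 tested genes, 7 lay higher and 3 lower at an unadjusted p under 0.05 (4.25% and 3.46% of all genes). The genes named from each list, Srebf1 aside, were those of smallest unadjusted p in limma. A difference between the groups in them therefore follows in part from that choice. At most 1 gene per list, of 8 to 15 tested, was higher in every EC-Jag1KO library, and at most 1 was lower in every one. Among all genes, 6.84% were higher in every EC-Jag1KO library and 6.73% were lower. Among 14 further enzymes and carriers of fatty acid synthesis, 11 lay higher and 3 lower, with a median log2 fold change of 0.11. Me1, the malic enzyme that supplies NADPH for synthesis, stood at 47.7, 28.1 and 36.3 FPKM in wild-type libraries, against 127, 50.2 and 59.1 FPKM with EC-Jag1KO. Its groups did not overlap, its log2 fold change was 0.96 and its adjusted p was 0.588. Acss2, which makes acetyl-CoA from acetate, stood at 11.5, 4.36 and 7.48 FPKM against 27.5, 9.21 and 18.4 FPKM, with groups that overlapped and an adjusted p of 0.609. As with Acly, EC-Jag1KO replicate 1 was the highest library in both.

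Of 11 regulators of lipogenic transcription, 5 lay higher and 6 lower, with a median of -0.0037. Mlxipl, which encodes ChREBP, stood at 12.6, 5.14 and 18.4 FPKM in wild-type libraries, against 23.2, 18.6 and 13.2 FPKM with EC-Jag1KO. Its groups overlapped and the log2 fold change was 0.68. Rxra, the partner of many nuclear receptors, was lower in every EC-Jag1KO library, at 26.9, 30.3 and 29.6 FPKM against 23.6, 23.2 and 22.9 FPKM, with a log2 fold change of -0.30 and an adjusted p of 0.490. Srebf1, which encodes SREBP-1c, the factor named for these enzymes, stood at 26.1, 21.4 and 34.8 FPKM against 31.3, 25.8 and 30.3 FPKM, a log2 fold change of 0.11. Srebf1 was added for that role after its values were seen.

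Of 10 further genes of triglyceride assembly, 6 lay higher and 4 lower. Gpat4, an acyltransferase of the first step, was higher in every EC-Jag1KO library, at 24.4, 18.6 and 26.1 FPKM against 40.2, 29.7 and 27.7 FPKM. Lpin3, a lipin phosphatase, was lower in every one, at 7.94, 7.75 and 7.09 FPKM against 4.18, 5.46 and 4.09 FPKM, with a log2 fold change of -0.63 and an adjusted p of 0.345. Among 8 droplet proteins 4 lay higher and 4 lower, and the droplet protein Plin5 stood at 7.03, 0.501 and 5.92 FPKM against 12.0, 9.95 and 6.45 FPKM. Of 9 further lipolysis genes 8 lay higher, among them the phosphodiesterase Pde3b with a log2 fold change of 0.38.

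Of 10 further uptake genes 6 lay higher, with log2 fold changes of 0.28 for the receptor Vldlr and 0.42 for the synthetase Acsl4. The adipogenic factors were evenly split, 5 higher and 5 lower: Cebpd stood at 69.1, 55.6 and 70.3 FPKM against 109, 99.2 and 82.6 FPKM without overlap (adjusted p of 0.402), and Ebf1 had a log2 fold change of -0.15. Of 10 insulin signalling genes 7 lay higher, with 0.29 for the receptor Insr and 0.38 for its substrate Irs1. Of 15 further secreted or surface genes 11 lay higher, among them the adiponectin receptor Adipor2 with 0.37. Sncg, gamma-synuclein, which adipocytes and neurons express, was lower in every EC-Jag1KO library, at 42.0, 25.8 and 42.5 FPKM against 19.0, 23.4 and 18.1 FPKM, with a log2 fold change of -0.81 and an adjusted p of 0.402.

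The libraries were also set side by side by the sex read from Xist and Y-linked genes, which the labels do not give. Both male EC-Jag1KO libraries were above both male wild-type libraries in 19 of 33 genes (24.0% of all genes tested), and the female EC-Jag1KO library was below the female wild-type library in 25 of 33 (54.1%). Both held in 14 of 33 genes (13.5%), 2 of them identity genes and 0 of them synthesis genes. The female pair differed downwards in all 5 identity genes and in 0 of the 7 synthesis genes. Cfd stood at 302 and 160 FPKM in male wild-type, 615 and 503 FPKM in male EC-Jag1KO, 861 FPKM in female wild-type and 213 FPKM in female EC-Jag1KO aorta. Retn followed the same order, with 17.0 and 6.04, 32.4 and 29.2, 39.3 and 10.1 FPKM. In the 4 male libraries alone, 31 of 33 genes lay higher (53.8% of all genes), with a median log2 fold change of 1.21, and that of the 5 identity genes was 1.32. There 10 of 33 lay higher at an unadjusted p under 0.05 (7.02% of all genes) and 0 lay lower (4.07%), and 0 passed after adjustment. Wild-type replicate 2 is 1 of the 2 wild-type libraries in that comparison. A genotype-by-sex interaction fitted with limma passed for 0 of 33 genes, with a smallest adjusted p of 0.126, so a difference between the sexes was not shown.

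Markers of other cells of the tissue were read beside these genes. The brown adipocyte list, 11 of 15 tested, had 9 genes higher and 2 lower, and its summed level ran from 63.6 to 631 FPKM in wild-type and from 295 to 462 FPKM in EC-Jag1KO libraries. Ucp1 stood at 108, 8.74 and 263 FPKM in wild-type libraries, against 144, 63.6 and 85.2 FPKM with EC-Jag1KO, low in the same wild-type library as Adipoq. Cidea, which is also a droplet protein, stood at 102, 18.4 and 124 FPKM against 140, 104 and 105 FPKM, and the brown fat elongase Elovl3 ranged from 0.0799 to 8.36 FPKM. The 10 smooth muscle markers, whose sum checks the tissue as aorta, summed to 14516 to 15244 FPKM in wild-type and 12198 to 14306 FPKM in EC-Jag1KO libraries, 3 higher and 7 lower, so that every EC-Jag1KO sum was below every wild-type sum. The 5 tested erythroid genes all lay lower, with log2 fold changes from -1.46 to -0.98 and a median of -1.39, and 0 of 5 passed. The erythroid sum was 741 to 1519 FPKM in wild-type and 190 to 919 FPKM in EC-Jag1KO libraries. The sums of 10 macrophage markers (224 to 288 against 260 to 288 FPKM) and of 10 fibroblast markers (2156 to 2641 against 2517 to 2662 FPKM) overlapped between groups. The part of any of these in the results above was not tested, apart from the identity level used as a covariate.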

How the data were processed

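Total RNA of mouse aorta was purified on spin columns, per the labels' protocols. The authors deposited 1 table of FPKM values for 35275 genes with gene lengths and coordinates, and every sample column of it was used. The submitters' processing notes name STAR, HTSeq, edgeR and the build mm10 without roles or versions. The annotation release and strand setting are unknown. Whole reads were recovered from the deposited FPKM values: 100% of 211650 lay at most 0.05 from an integer. The depth so found was 19889910 to 25914325 reads per library. Pairs of libraries differed by 26.3 to 79.7 in chi-square per degree of freedom, so none was counted as a duplicate.

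A gene entered the test if its mean reached 1 FPKM, and values were taken as log2(FPKM + 1), a scale that understates changes of low genes. The test was limma 3.58.1 in R 4.3.3 with a trend, only genotype in the model, and two-sided p-values adjusted by Benjamini-Hochberg over all genes tested, with a threshold of 0.05. It was tested on simulated data. Alternatives changed the pseudocount, filter, scaling, variance model, covariates and libraries. Plots used matplotlib 3.10.9 in Python 3.11.15.

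Replicate numbers were not taken as pairs. Members, roles and lists were chosen with earlier results of these data known. The text names every member, Jag1, the 2 genes of smallest p in each of 9 pathway lists and the leading genes of 11 cell type lists, except 1 gene that is not reported here; 243 of 244 list symbols matched the table, 7 of them through an identifier. Cell lists not detailed in the text, by the range of their summed FPKM over wild-type and over EC-Jag1KO libraries, were adipocyte precursors (524 to 1486, 745 to 1512), Schwann cells (111 to 112, 115 to 119), lymphocytes (1.79 to 3.41, 1.38 to 3.98), mesothelium (7.16 to 10.4, 9.22 to 14.8) and skeletal muscle (5.18 to 8.11, 5.97 to 6.27). The adipocyte precursor list includes the member Fabp4, which makes up much of its sum. Fabp4 stood at 206 to 1216 FPKM in wild-type and 519 to 1274 FPKM in EC-Jag1KO libraries. Of the 6 tested genes of that list 2 lay higher and 4 lower, with a median log2 fold change of -0.079.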

Additional observations from a re-analysis of the deposited data

How the results depend on the processing

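All 33 tested genes missed the threshold under every alternative run, and no sign changed among them under another pseudocount, filter, scaling, variance model, sex covariate or voom. Over all genes, 2 passed in male libraries only, 1 with sex as a covariate and 0 to 4 with a library left out, the 4 without EC-Jag1KO replicate 1; none was a member. With 1 library left out, 16 to 31 of 33 members lay higher, the median log2 fold change of the members was -0.058 to 1.03 and that of the identity genes -0.10 to 1.18, each lowest without wild-type replicate 2. Of the 28 tested genes outside the identity set, 26 lay higher; with a library left out 15 to 27 did, 17 with the identity level as covariate, 16 with Adipoq as covariate and 16 without Plin4 in the covariate, an alternative added after the data were seen. The median of the synthesis genes stayed at 0.61 to 1.82 with a library left out. Log2 fold changes that changed sign with the identity level as covariate were Cfd -0.34, Retn -0.23, Car3 -0.022, Lpl -0.031, Fabp4 -0.17, Acsl1 -0.14, Agpat2 -0.11, Dgat1 -0.19, Lipe -0.024. With Adipoq as covariate they were Cfd -0.42, Retn -0.31, Car3 -0.074, Lpl -0.079, Cd36 -0.0038, Fabp4 -0.21, Acsl1 -0.17, Agpat2 -0.15, Dgat1 -0.23, Lipe -0.058, and without Plin4 Cfd -0.37, Retn -0.26, Car3 -0.059, Lpl -0.071, Cd36 -0.0061, Fabp4 -0.20, Acsl1 -0.17, Agpat2 -0.14, Dgat1 -0.21, Lipe -0.057. Adrb3 was 0.41 in male libraries. Ranges with a library left out that crossed 0 were Adipoq -0.058 to 1.18, Plin1 -0.10 to 1.28, Plin4 -0.31 to 0.017, Cidec -0.31 to 0.93, Cfd -0.34 to 0.88, Retn -0.27 to 0.99, Adrb3 -1.10 to 0.19, Car3 -0.12 to 1.03, Lpl -0.16 to 1.06, Cd36 -0.13 to 1.14, Fabp4 -0.30 to 0.98, Acsl1 -0.25 to 0.57, Pck1 -0.11 to 1.25, Agpat2 -0.20 to 0.79, Dgat1 -0.22 to 0.48, Lipe -0.13 to 0.82; in 14 genes the sign changed without wild-type replicate 2. With the replicate block, 0 genes passed, 30 members lay higher and their smallest adjusted p was 0.242; 6 of 7 synthesis genes in place of 2 lay higher at an unadjusted p under 0.05 (4.08% of all genes). The labels do not pair same-numbered libraries, which are of 1 sex. Their deviations from the group means correlated at 0.055, 0.051 and -0.050. Each library correlated best with a library of another number. The planned edgeR test on recovered reads was not run, since the deposited unit is FPKM. The cause of these changes was not tested. Depth limits Lep, at 4 to 63 reads, and Adig and Pnpla3 in wild-type replicate 2.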

Other observations

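The genotype-by-sex interaction was added after the data were seen. Over all genes 4 of 12165 passed with limma, none of them a member, and 7 of 33 members had an unadjusted p under 0.05, as did 1866 of all 12165 genes. It rests on 1 female library per genotype, and wild-type replicate 2, the lowest library of most members, is 1 of the 2 male wild-type libraries.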
